A study of Homo sapiens with 6 samples.

Results

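Kinetochore and spindle checkpoint genes were followed in HT-1080 cells, a human fibrosarcoma line, by RNA sequencing. The set was a list of 39 gene symbols, of 26286 genes in the deposited tables, chosen by what their proteins do. The choice was made with earlier results of these data known, so the shares called below describe the list and do not test it. Cultures received 2 µM palbociclib, an inhibitor of the kinases CDK4 and CDK6, 500 nM pimasertib, which blocks MEK1 and MEK2, or the DMSO vehicle, in each case for 48 h. Each treatment had 2 libraries, 6 in all, with totals of 13607490 to 17500655 counts. Nothing in the labels says whether the 2 replicates were separate cultures. A p-value here therefore reflects how far these libraries differ, and that difference may be technical. Levels are CPM, read counts scaled by library totals and TMM factors (trimmed mean of M values), and a count of 3 stood for 0.168 to 0.220 CPM. A gene is called lower or higher where its Benjamini-Hochberg adjusted p is under 0.05 in edgeR's quasi-likelihood test over 14839 genes, among which were all 39.

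The kinetochore is the protein plate that joins a chromosome to spindle microtubules. Its inner layer sits on nucleosomes that hold the histone H3 variant CENPA, and its outer layer, the KMN network, grips the microtubule. Kinetochores without a microtubule recruit the checkpoint proteins, which hold back anaphase until every chromosome is attached. Many of these genes are transcribed mostly in G2 and mitosis, and in resting cells they are held down by the DREAM complex of an RB-family protein, an E2F factor and the MuvB core. CDK4/6 activity and, upstream of it, ERK signalling release cells from that state.

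The set was lower in both drugs. Summed over the 39 genes, the level was 1037 and 876 CPM in palbociclib, 1141 and 940 CPM in pimasertib, and 2498 and 2141 CPM in DMSO. The palbociclib mean of 957 ± 114 CPM (SD, n = 2) was 41.3% of the DMSO mean of 2319 ± 252 CPM, and the pimasertib mean of 1040 ± 143 CPM was 44.9% of it. No treated library reached either DMSO library. In RNA from whole cultures, fewer dividing cells and less of each transcript per cell cannot be told apart. MKI67, a marker of dividing cells outside the set, also fell in both drugs (edgeR adjusted p = 0.00163 and 5.38e-04), at 168 ± 38.3 CPM in palbociclib and 223 ± 1.94 CPM in pimasertib, against 994 ± 252 CPM in DMSO.

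In palbociclib, 23 of the 39 genes fell (59.0%), beside 2.44% of all tested genes called lower and 3.54% called in either direction. None was called higher by edgeR, DESeq2 or limma-voom, beside 1.11% of all tested genes by edgeR, and at an unadjusted p under 0.05, 35 genes differed, all of them lower, beside 18.0% of all tested genes in either direction. The median log2 fold change of the 39 genes was -1.43, beside 0.00 for all tested genes. In pimasertib, 32 fell (82.1%), beside 11.7% of all tested genes called lower and 22.8% in either direction. None was called higher by any of the 3 tools, beside 11.1% of all tested genes by edgeR. At an unadjusted p under 0.05 there were 35, all lower, beside 36.5% of all tested genes in either direction, and the median was -1.21, beside 0.00 for all tested genes. The 2 palbociclib libraries lay below both DMSO libraries in 38 genes, beside 23.3% of all tested genes, and the 2 pimasertib libraries did so in 39, beside 32.6%. Both comparisons use the same DMSO libraries.

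**Figure D1:**
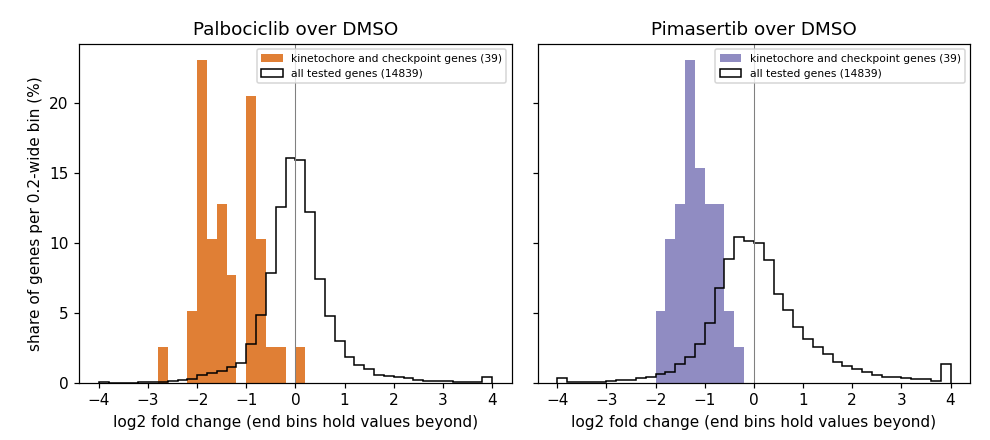
Share of genes (y axis, percent) in each bin of log2 fold change (x axis) for palbociclib over DMSO (left) and pimasertib over DMSO (right), with the 39 kinetochore and checkpoint genes filled and all 14839 tested genes outlined. The set is centred at -1.43 in palbociclib and -1.21 in pimasertib, and all tested genes at 0.00 in both. The gap in the palbociclib values between -1.22 and -0.99 is no wider than the SE of the genes beside it.

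The changes were more unequal in palbociclib. There the interquartile range of the genes was 0.97 log2 units, with extremes of -2.66 for SPC25 and 0.19 for MAD1L1. No gene lay between SGOL2 at -1.22 and MIS18A at -0.99. That gap was no wider than the SE of either gene, 0.23 for SGOL2 and 0.31 for MIS18A. MIS18A itself ran from -1.42 to -0.62 when 1 library was left out. In pimasertib the interquartile range was 0.54 log2 units, with extremes of -1.89 for SKA3 and -0.37 for MIS12. Over all tested genes the order was the other way round, 0.67 log2 units in palbociclib and 1.09 in pimasertib.

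Which libraries carried the calls differed between the drugs. Of the 23 palbociclib calls, 19 held in each of the 6 fits that left out 1 library. Each such fit leaves 1 group with a lone library, which is assumed to vary like the other groups. DSN1 did not pass without DMSO replicate 1 (edgeR adjusted p = 0.168), palbociclib replicate 2 (0.0945), pimasertib replicate 1 (0.0537) or pimasertib replicate 2 (0.0564). CENPE (0.109), SGOL1 (0.0812) and SGOL2 (0.0773) did not pass without palbociclib replicate 2. From the 4 libraries of palbociclib and DMSO, DSN1 (0.0542) and CENPE (0.0521) did not pass either. Without pimasertib replicate 2, only 10 of the 32 pimasertib calls passed, namely CENPN, CENPO, HJURP, CASC5, ZWINT, SPC24, KNTC1, SKA3, BUB1 and ERCC6L, and these passed in all 6 fits. The other 22 then had edgeR adjusted p of 0.0514 (NUF2) to 0.320 (TTK), and 8 of them also failed without another library. Those were CENPH, MIS18A, NDC80, BUB1B, TTK and SGOL1 without DMSO replicate 1 (0.0515 to 0.189), CENPP in the same fit (0.165), CENPH, CENPP and TTK without DMSO replicate 2 (0.0704 to 0.127), and CENPP, MIS18A, NDC80, CENPF, BUB1B, TTK and SGOL1 without pimasertib replicate 1 (0.053 to 0.126). Without pimasertib replicate 2, the calls over all tested genes shrank in about the same proportion as those of the set. That library was the lower of its pair in 37 of the 39 genes, by a median of 0.30 log2 units. It also had the highest share of mitochondrially encoded counts, 8.76% against 3.21% to 6.31% in the other 5 libraries. Replicate 2 was the lower one for 24 genes in palbociclib and 29 in DMSO, with medians of -0.14 and -0.19, where 49.1% to 52.0% of all tested genes were lower in replicate 2. The part of this replicate difference in the calls was not tested.

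Promoter sequence was set beside these changes because the genes moved together. The cell cycle genes homology region (CHR), the letters TTTGAA on either strand, is the element through which MuvB binds many mitotic genes. RefSeq promoters on GRCh38.p14, from 250 bases before to 50 after the start of transcription, were matched for 31 of the 39 genes. CENPH, CENPL, CENPM, MIS18A, CASC5, KNTC1, BUB3 and TTK had no entry. The letters occurred in 14 of the 31 (45.2%), beside 15.4% of all 27305 promoters and 12.1% of 15843 protein-coding ones. They were in 12 of the 19 genes called lower in palbociclib and in 2 of the 12 not called. That split is by palbociclib calls only. The 2 uncalled genes, CENPN and MAD2L1, were called lower in pimasertib (edgeR adjusted p = 0.00228 and 0.00434). So were genes without the letters, among them ZWILCH and SPC24 (edgeR adjusted p = 0.00818 and 0.00125). In 12 of the 14 genes that hold them, the letters lay within 50 bases of the start. Those 12 are 38.7% of the 31 genes, beside 3.27% of protein-coding promoters with the letters that close to the start. Of the 1923 protein-coding promoters that hold the letters anywhere, 518 had them in this window. The window was chosen after the positions were seen. The 10 windows below run from 100 bases before to 30 after the start, and capitals mark TTTGAA or, where it is on the other strand, TTCAAA. In the first 8 genes, from the inner and outer kinetochore and the checkpoint, the letters sit close to the start. ZWILCH and MAD1L1, which had the smallest changes in palbociclib, hold none. Nor do 7 genes that were called lower in palbociclib, SPC24, SGOL1, CENPI, BUB1, CENPE, DSN1 and SGOL2, among them the second largest fall of the set, that of SPC24. A match is a description of sequence, not a site shown to be bound.
SPC25 (chr2:168890401-168890530, minus strand): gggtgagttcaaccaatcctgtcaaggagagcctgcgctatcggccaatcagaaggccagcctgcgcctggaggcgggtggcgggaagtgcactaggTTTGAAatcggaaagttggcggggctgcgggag
NDC80 (chr18:2571457-2571586, plus strand): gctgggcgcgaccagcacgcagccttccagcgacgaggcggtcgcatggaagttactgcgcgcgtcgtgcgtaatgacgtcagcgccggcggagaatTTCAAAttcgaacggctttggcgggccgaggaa
NUF2 (chr1:163321854-163321983, plus strand): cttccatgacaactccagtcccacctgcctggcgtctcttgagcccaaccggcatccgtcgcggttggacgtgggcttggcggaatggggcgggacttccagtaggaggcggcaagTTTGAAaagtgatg
CENPA (chr2:26785956-26786085, plus strand): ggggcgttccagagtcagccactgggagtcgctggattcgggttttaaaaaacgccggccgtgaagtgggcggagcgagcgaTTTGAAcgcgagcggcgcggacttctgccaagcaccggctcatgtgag
ZWINT (chr10:56361230-56361359, minus strand): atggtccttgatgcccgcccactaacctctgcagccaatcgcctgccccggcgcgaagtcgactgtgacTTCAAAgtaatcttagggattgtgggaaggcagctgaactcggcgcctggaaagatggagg
SKA3 (chr13:21176523-21176652, minus strand): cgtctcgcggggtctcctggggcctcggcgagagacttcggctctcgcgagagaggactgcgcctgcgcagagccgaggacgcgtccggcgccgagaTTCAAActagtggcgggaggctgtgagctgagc
BUB1B (chr15:40160969-40161098, plus strand): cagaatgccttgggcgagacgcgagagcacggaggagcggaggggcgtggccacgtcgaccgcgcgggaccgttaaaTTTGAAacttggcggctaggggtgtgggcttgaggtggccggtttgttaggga
MAD2L1 (chr4:120066819-120066948, minus strand): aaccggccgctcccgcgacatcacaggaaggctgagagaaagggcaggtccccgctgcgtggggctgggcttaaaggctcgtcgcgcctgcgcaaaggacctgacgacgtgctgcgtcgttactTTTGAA
ZWILCH (chr15:66505226-66505355, plus strand): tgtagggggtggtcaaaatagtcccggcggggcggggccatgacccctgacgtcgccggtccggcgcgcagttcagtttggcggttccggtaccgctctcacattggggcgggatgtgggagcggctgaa
MAD1L1 (chr7:2232916-2233045, minus strand): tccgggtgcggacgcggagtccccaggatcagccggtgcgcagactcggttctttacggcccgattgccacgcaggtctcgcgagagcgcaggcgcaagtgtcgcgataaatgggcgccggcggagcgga

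**Figure D2:**
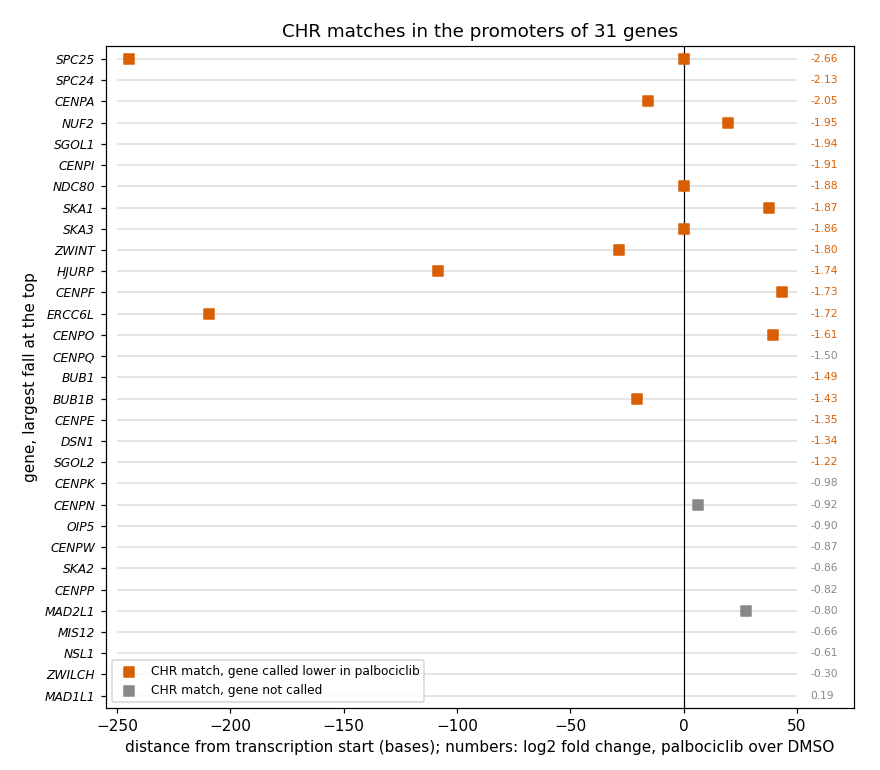
Each line is the promoter of 1 of 31 genes, ordered by log2 fold change in palbociclib over DMSO (numbers at the right, largest fall at the top), and squares mark CHR matches at their distance in bases from the start of transcription (x axis). Matches are in 12 of the 19 genes called lower (orange) and in 2 of the 12 not called (grey), CENPN and MAD2L1, and 12 of the 14 genes with a match have it within 50 bases of the start.

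Other promoter letters were searched too. CCAAT, read by the factor NF-Y, occurred in 19 of the 31 promoters (61.3%), beside 36.4% of protein-coding ones, in 10 of the 19 genes called lower and in 9 of the 12 not called. The E2F-type letters TTTCCCGC, TTTGGCGC, TTTCGCGC and TTTGCCGC occurred in 3, namely CENPA, OIP5 and MIS12 (9.68%, beside 4.44% of protein-coding promoters). Of all these matches, 1 shared a base with the CHR letters, a CCAAT in ERCC6L. No match says only that these letters are not in this window.

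**Figure D3:**
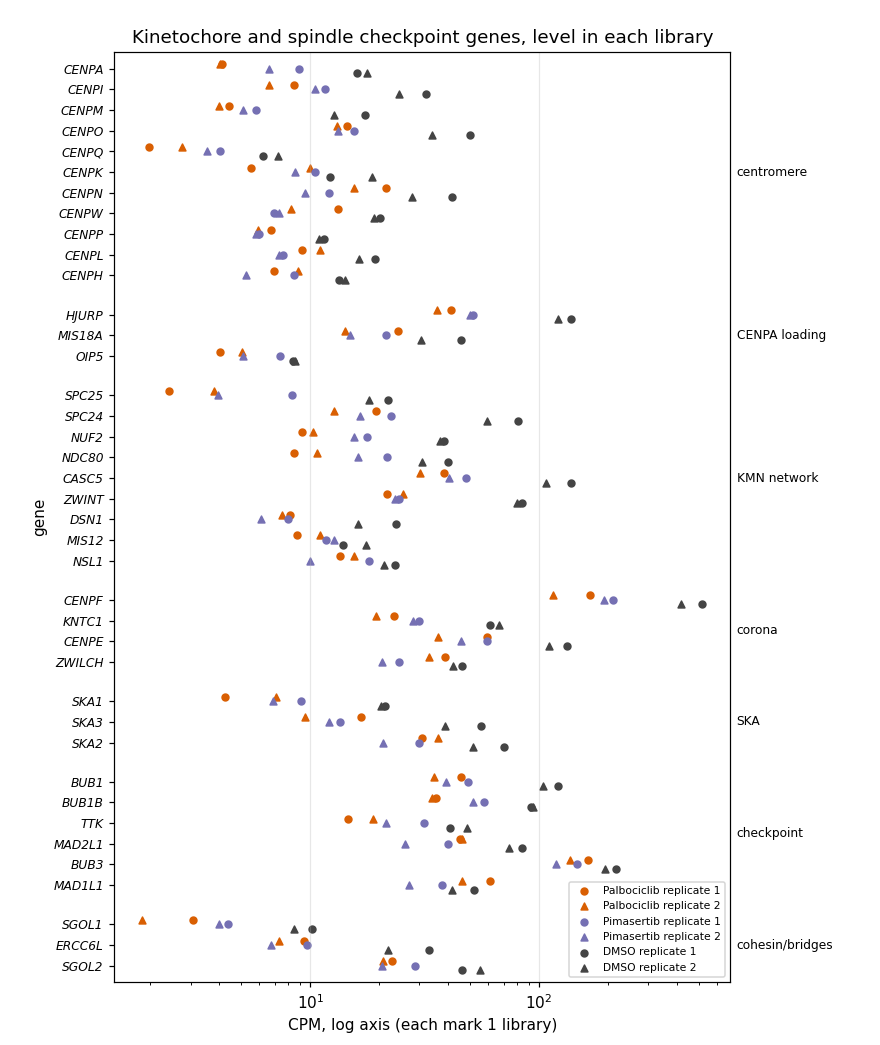
CPM on a log axis in each of the 6 libraries (circles replicate 1, triangles replicate 2) for the 39 genes, grouped by role and, within a role, ordered by change in palbociclib. Palbociclib (orange) and pimasertib (violet) marks lie left of the DMSO marks (dark grey) in every gene except MAD1L1, where palbociclib at 61.2 and 45.9 CPM overlaps DMSO at 52.0 and 41.7 CPM.

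The largest and second largest decreases in palbociclib, those of SPC25 and SPC24, were in the KMN network. Of its 9 genes 7 fell in palbociclib and 7 in pimasertib, with median log2 fold changes of -1.84 and -1.48. The median of the SKA genes, described below, was similar in palbociclib, at -1.86. The NDC80 complex, which grips the microtubule, has 4 subunits. SPC25 (ENSG00000152253, chromosome 2, positions 169690642 to 169769881 on GRCh37, minus strand) was at 2.42 and 3.81 CPM in palbociclib, 8.36 and 3.95 CPM in pimasertib, and 21.9 and 18.0 CPM in DMSO. Its log2 fold change in palbociclib was -2.66 (SE 0.39, edgeR adjusted p = 0.00445), the largest fall of the set, and in pimasertib -1.69 (SE 0.37, edgeR adjusted p = 0.00949), where the 2 libraries differed by more than 2-fold. SPC24, its partner at the inner end of the complex, was at 19.4 and 12.8 CPM in palbociclib, 22.6 and 16.5 CPM in pimasertib, and 80.7 and 59.4 CPM in DMSO. SPC24 lay below both DMSO libraries in each drug, with log2 fold changes of -2.13 (SE 0.28) in palbociclib and -1.84 (SE 0.27) in pimasertib (edgeR adjusted p = 0.00271 and 0.00125). NDC80, the subunit that contacts the microtubule (ENSG00000080986, chromosome 18, positions 2571510 to 2616634 on GRCh37, plus strand), was at 8.51 and 10.7 CPM in palbociclib, 21.6 and 16.2 CPM in pimasertib, and 40.1 and 30.9 CPM in DMSO. NUF2, with which NDC80 pairs along its length (ENSG00000143228, chromosome 1, positions 163236366 to 163325554, plus strand), was at 9.17 and 10.3 CPM in palbociclib, 17.7 and 15.6 CPM in pimasertib, and 38.5 and 36.9 CPM in DMSO. In both genes the 3 treatments did not overlap, with palbociclib lowest and DMSO highest. The log2 fold changes of NDC80 were -1.88 in palbociclib and -0.91 in pimasertib, and those of NUF2 -1.95 and -1.18 (edgeR adjusted p = 0.00307, 0.0245, 0.00163 and 0.00352 in that order).

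The other 5 genes of the network split into genes that fell and genes that were not called. CASC5, now named KNL1, the scaffold on which BUB proteins gather, was left at 28.0% of its DMSO level in palbociclib and 35.9% in pimasertib. ZWINT, which binds KNL1, was left at 28.7% and 29.3%, and DSN1, of the MIS12 complex, at 39.4% and 35.4%, and all 3 were called lower in both. MIS12, which names that complex, was at 8.73 and 11.1 CPM in palbociclib, 11.7 and 12.7 CPM in pimasertib, and 13.9 and 17.6 CPM in DMSO, without a call (edgeR adjusted p = 0.199 and 0.321). NSL1, also of the MIS12 complex, was at 13.5 and 15.6 CPM in palbociclib, 18.1 and 9.96 CPM in pimasertib, and 23.4 and 21.0 CPM in DMSO, and was not called either (edgeR adjusted p = 0.298 and 0.124, the second 0.0444 without pimasertib replicate 1). All treated libraries of both genes lay below both DMSO libraries.

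Of the 11 genes of the centromere, CENPA and its constitutive neighbours, 4 fell in palbociclib and 9 in pimasertib, with median log2 fold changes of -0.98 and -1.25. CENPA, the histone variant that marks the centromere (ENSG00000115163, chromosome 2, positions 26987157 to 27023935 on GRCh37, plus strand), was at 4.11 and 4.03 CPM in palbociclib, 8.93 and 6.60 CPM in pimasertib, and 16.0 and 17.7 CPM in DMSO. That is 24.2% of the DMSO mean in palbociclib (log2 fold change -2.05, SE 0.28, edgeR adjusted p = 0.00312) and 46.1% in pimasertib (-1.11, SE 0.27, edgeR adjusted p = 0.0145). CENPI, of the CENP-HIKM group, was at 8.51 and 6.61 CPM in palbociclib, 11.6 and 10.5 CPM in pimasertib, and 32.0 and 24.6 CPM in DMSO, with log2 fold changes of -1.91 (SE 0.25) and -1.35 (SE 0.25) and edgeR adjusted p of 0.00307 and 0.00402. CENPM of the same group and CENPO were also called lower in both drugs, at 27.9% and 32.9% of DMSO in palbociclib and 36.4% and 34.4% in pimasertib.

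The other genes of the HIKM group gave values closer to DMSO. CENPH was at 6.97 and 8.85 CPM in palbociclib, 8.53 and 5.24 CPM in pimasertib, and 13.4 and 14.1 CPM in DMSO, and was called in pimasertib (edgeR adjusted p = 0.0376) and not in palbociclib (0.189). CENPK was at 5.50 and 9.97 CPM in palbociclib, 10.5 and 8.60 CPM in pimasertib, and 12.2 and 18.7 CPM in DMSO, and was called in neither (edgeR adjusted p = 0.153 and 0.164, the first 0.0369 with no filter). Its libraries spread widely within palbociclib and within DMSO.

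CENPN and CENPL form the pair that binds the CENPA nucleosome. CENPN was at 21.4 and 15.5 CPM in palbociclib, 12.1 and 9.51 CPM in pimasertib, and 41.7 and 27.9 CPM in DMSO. CENPL was at 9.24 and 11.0 CPM in palbociclib, 7.61 and 7.31 CPM in pimasertib, and 19.1 and 16.3 CPM in DMSO. In both genes pimasertib gave the lowest values, with log2 fold changes over DMSO of -1.69 (SE 0.28) and -1.25 (SE 0.25) and edgeR adjusted p of 0.00228 and 0.00607. The palbociclib values of -0.92 and -0.80 were not called (edgeR adjusted p = 0.102 and 0.112), though CENPN passed without DMSO replicate 2 (0.0186), without palbociclib replicate 1 (0.0336) and with no filter (0.0186).

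CENPW, a histone-fold protein that binds DNA with CENPT, was at 13.3 and 8.23 CPM in palbociclib, 6.97 and 7.31 CPM in pimasertib, and 20.2 and 19.1 CPM in DMSO. It fell by 1.46 on the log2 scale in pimasertib (edgeR adjusted p = 0.00499), and the value of -0.87 in palbociclib was not called (edgeR adjusted p = 0.122, but 0.0316 without palbociclib replicate 1). CENPP, of the same group as CENPO, was at 6.75 and 5.94 CPM in palbociclib, 5.99 and 5.82 CPM in pimasertib, and 11.5 and 10.9 CPM in DMSO, called in pimasertib (edgeR adjusted p = 0.0332, but 0.0516 with DESeq2 and 0.0558 with no filter) and not in palbociclib (0.137). CENPQ, also of that group, was at 1.98 and 2.74 CPM in palbociclib, 4.03 and 3.56 CPM in pimasertib, and 6.20 and 7.24 CPM in DMSO. CENPQ was just outside the threshold in palbociclib (-1.50, SE 0.36, edgeR adjusted p = 0.0505, DESeq2 adjusted p = 0.0290, with no filter 0.0213) and outside it in pimasertib (-0.82, SE 0.35, edgeR adjusted p = 0.117).

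New CENPA is placed by HJURP, its chaperone, after the Mis18 complex of MIS18A and OIP5 has marked the site. HJURP was at 41.4 and 36.0 CPM in palbociclib, 51.5 and 50.2 CPM in pimasertib, and 138 and 121 CPM in DMSO. It fell in both drugs, with log2 fold changes of -1.74 (SE 0.20) and -1.35 (SE 0.20) (edgeR adjusted p = 0.00174 and 0.00123). MIS18A was at 24.1 and 14.2 CPM in palbociclib, 21.4 and 14.9 CPM in pimasertib, and 45.5 and 30.6 CPM in DMSO, with replicate 2 the lower of each pair. It was called in pimasertib (-1.07, edgeR adjusted p = 0.0322) and not in palbociclib (-0.99, edgeR adjusted p = 0.120), where it passed without DMSO replicate 2 (0.0215) or palbociclib replicate 1 (0.00706), or with no filter (0.0055). OIP5 was at 4.03 and 5.04 CPM in palbociclib, 7.38 and 5.11 CPM in pimasertib, and 8.45 and 8.59 CPM in DMSO, and was called in neither (edgeR adjusted p = 0.159 and 0.327).

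The corona is the outermost layer of unattached kinetochores. CENPF, a large coiled-coil protein of this layer, was at 168 and 115 CPM in palbociclib, 212 and 192 CPM in pimasertib, and 518 and 418 CPM in DMSO, where it made up 20.2% of the summed CPM of the set. It fell in both drugs, with log2 fold changes of -1.73 (SE 0.26) and -1.21 (SE 0.25) (edgeR adjusted p = 0.00483 and 0.00782). CENPE, a kinesin that carries chromosomes to the spindle equator, also fell in both drugs, to 39.2% and 43.1% of its DMSO level (edgeR adjusted p = 0.0200 and 0.00949). KNTC1 and ZWILCH belong to the RZZ complex, which brings dynein and the MAD proteins to the kinetochore. KNTC1 was at 23.2 and 19.4 CPM in palbociclib, 29.9 and 28.2 CPM in pimasertib, and 61.4 and 66.9 CPM in DMSO, and fell in both (edgeR adjusted p = 0.00246 and 0.00302). ZWILCH was at 38.6 and 33.2 CPM in palbociclib, 24.4 and 20.6 CPM in pimasertib, and 46.2 and 41.9 CPM in DMSO. It fell in pimasertib (-0.97, SE 0.21, edgeR adjusted p = 0.00818) and was not called in palbociclib (-0.30, SE 0.20, edgeR adjusted p = 0.495).

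The SKA complex follows the ends of shrinking microtubules. SKA1 was at 4.25 and 7.06 CPM in palbociclib, 9.11 and 6.86 CPM in pimasertib, and 21.3 and 20.4 CPM in DMSO. SKA3 was at 16.7 and 9.46 CPM in palbociclib, 13.54 and 12.03 CPM in pimasertib, and 55.8 and 38.9 CPM in DMSO. Both fell in both drugs, with log2 fold changes of -1.87 and -1.38 for SKA1 and of -1.86 and -1.89 for SKA3 (edgeR adjusted p = 0.00687, 0.00841, 0.0068 and 0.00178 in that order). SKA2, the remaining subunit, was at 30.7 and 36.1 CPM in palbociclib, 30.02 and 20.89 CPM in pimasertib, and 70.1 and 51.6 CPM in DMSO. It fell in pimasertib (-1.26, edgeR adjusted p = 0.00572), and its palbociclib value of -0.86 was not called (edgeR adjusted p = 0.0910, but 0.0228 without DMSO replicate 2, 0.0171 with no filter and 0.0494 with DESeq2).

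Of the checkpoint genes, 3 of 6 were called lower in palbociclib and 4 in pimasertib. BUB1, a kinase that also recruits shugoshin, was at 45.5 and 34.8 CPM in palbociclib, 48.8 and 39.1 CPM in pimasertib, and 121 and 104 CPM in DMSO. BUB1B encodes BUBR1 of the complex that inhibits the anaphase-promoting complex, and was at 35.4 and 34.1 CPM in palbociclib, 57.4 and 51.3 CPM in pimasertib, and 92.3 and 94.5 CPM in DMSO. Both fell in both drugs, with log2 fold changes of -1.49 and -1.36 for BUB1 and of -1.43 and -0.78 for BUB1B (edgeR adjusted p = 0.00519, 0.00229, 0.00307 and 0.0156 in that order). TTK, the kinase MPS1 that starts the signal, fell to 37.4% of DMSO in palbociclib (edgeR adjusted p = 0.0112) and 59.0% in pimasertib (edgeR adjusted p = 0.0478, which with DESeq2 size factors was 0.0538, in DESeq2's own test 0.0511 and with a stricter filter 0.0575).

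The remaining checkpoint genes were nearer to DMSO in palbociclib. MAD2L1, which encodes MAD2, was at 45.0 and 46.2 CPM in palbociclib, 39.9 and 25.9 CPM in pimasertib, and 84.6 and 74.1 CPM in DMSO. It fell in pimasertib (-1.27, edgeR adjusted p = 0.00434) and was not called in palbociclib (-0.80, edgeR adjusted p = 0.0993, but 0.0300 with no filter). BUB3, which tethers BUB1 and BUBR1 to KNL1, was at 163 and 137 CPM in palbociclib, 147 and 119 CPM in pimasertib, and 216 and 194 CPM in DMSO, and was called in neither (edgeR adjusted p = 0.324 and 0.0681, the second 0.0424 with DESeq2). MAD1L1 encodes MAD1, the platform on which MAD2 changes shape (ENSG00000002822, chromosome 7, positions 1855429 to 2272878 on GRCh37, minus strand). Its level was 61.2 and 45.9 CPM in palbociclib, 37.7 and 27.2 CPM in pimasertib, and 52.0 and 41.7 CPM in DMSO. MAD1L1 was the only gene of the set whose palbociclib and DMSO libraries overlapped, and it was called in neither drug (edgeR adjusted p = 0.739 and 0.143).

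All 3 genes of cohesin protection and anaphase bridges fell in both drugs. SGOL1, now SGO1, the shugoshin that shields centromeric cohesin, was at 3.08 and 1.85 CPM in palbociclib, 4.38 and 4.01 CPM in pimasertib, and 10.2 and 8.52 CPM in DMSO. Its relative SGOL2, now SGO2, was at 22.9 and 20.8 CPM in palbociclib, 28.7 and 20.6 CPM in pimasertib, and 46.2 and 55.3 CPM in DMSO. ERCC6L encodes PICH, a translocase on the DNA threads that join separating chromatids, and was at 9.39 and 7.28 CPM in palbociclib, 9.68 and 6.73 CPM in pimasertib, and 33.0 and 21.9 CPM in DMSO. The palbociclib log2 fold changes were -1.94 (SE 0.36), -1.22 (SE 0.23) and -1.72 (SE 0.30) for the 3 genes in that order, and those of pimasertib -1.16 (SE 0.34), -1.04 (SE 0.23) and -1.74 (SE 0.30). Their edgeR adjusted p were 0.0147, 0.0155 and 0.00985 in palbociclib and 0.0348, 0.00933 and 0.0027 in pimasertib.

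**Figure D4:**
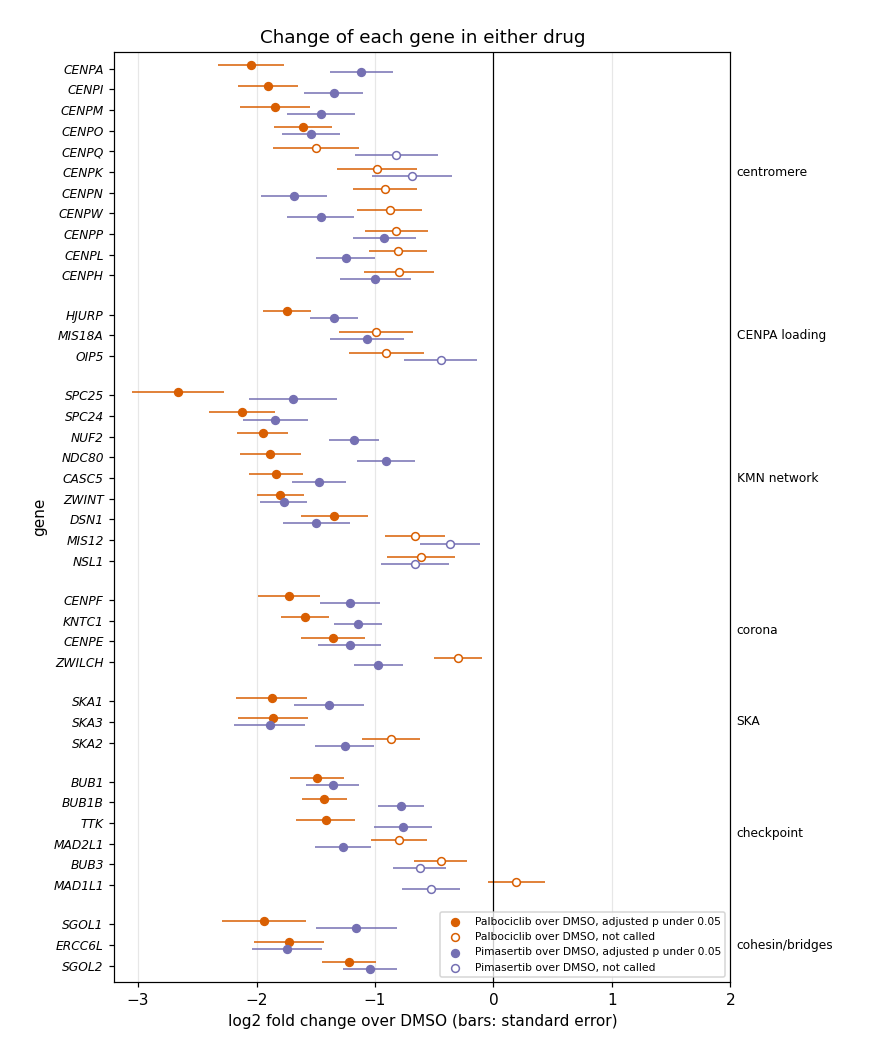
Log2 fold change over DMSO (x axis, bars are the standard error) of the 39 genes in palbociclib (orange) and pimasertib (violet), filled where the adjusted p was under 0.05. Of the palbociclib marks 23 are filled and of the pimasertib marks 32, all of them left of 0.

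Setting the drugs against each other, 2 genes were lower in palbociclib than in pimasertib, NDC80 and NUF2, beside 5.07% of all tested genes called lower and 9.39% in either direction. None was called higher by edgeR, DESeq2 or limma-voom, beside 4.31%. The count of 2 of 39 (5.13%) was thus near the background. At an unadjusted p under 0.05, 7 genes were lower and 3 higher, 10 of 39, which was also near the 24.7% of all tested genes. NDC80 had a log2 fold change of palbociclib over pimasertib of -0.98 (SE 0.25, edgeR adjusted p = 0.0375) and NUF2 of -0.77 (SE 0.22, edgeR adjusted p = 0.0492). Neither call was firm. NDC80 did not pass without palbociclib replicate 1 (0.175), pimasertib replicate 1 (0.217) or pimasertib replicate 2 (0.0838), nor with limma-voom (0.0538). NUF2 passed in none of the fits that left out 1 library (0.0503 to 0.288), nor from the 4 libraries of the 2 drugs (0.0684) or with limma-voom (0.0684). The other 2 subunits of their complex had -0.97 (SPC25, 95% interval -1.83 to -0.11, edgeR adjusted p = 0.153, but 0.0374 with no filter) and -0.28 (SPC24, -0.89 to 0.32, edgeR adjusted p = 0.551).

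**Figure D5:**
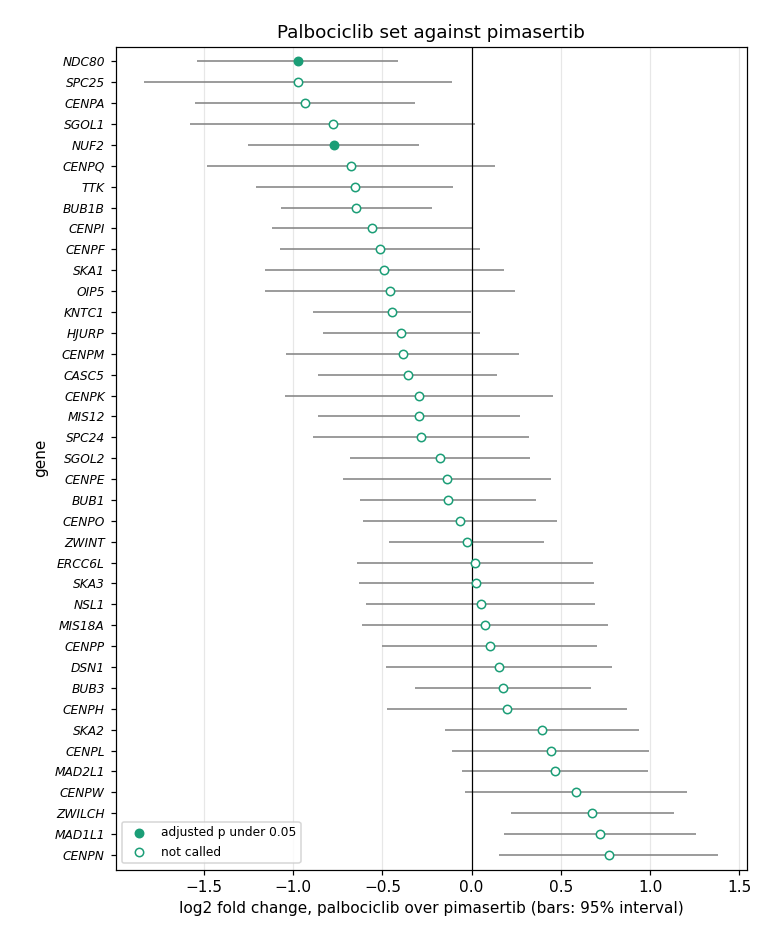
Log2 fold change of palbociclib over pimasertib (x axis, bars are unadjusted 95% intervals) for the 39 genes in order, filled where the adjusted p was under 0.05. The values run from -0.98 for NDC80 to 0.77 for CENPN, and only NDC80 and NUF2 are filled.

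The remaining 37 differences between the drugs were not called. Toward lower values in palbociclib these included CENPA (-0.93, 95% interval -1.55 to -0.31, edgeR adjusted p = 0.0649, but 0.0456 with no filter) and BUB1B (-0.65, -1.07 to -0.22, edgeR adjusted p = 0.0629, but 0.0393 with DESeq2 and 0.0398 with a stricter filter). Toward higher values they included CENPN (0.77, 0.16 to 1.38, edgeR adjusted p = 0.116), MAD1L1 (0.72, 0.18 to 1.26, edgeR adjusted p = 0.0949, but 0.0491 without DMSO replicate 1, 0.0468 without DMSO replicate 2 and 0.0417 with no filter) and ZWILCH (0.68, 0.22 to 1.13, edgeR adjusted p = 0.0696). ZWINT was close to equal in the drugs, with a difference of -0.03 and an interval of -0.47 to 0.41. Palbociclib libraries lay below both pimasertib libraries in 16 genes, beside 28.8% of all tested genes, and above both in 7, beside 27.7%, and 16 genes overlapped.

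A list of 42 other genes of the kinetochore and of chromosome attachment was read beside the set. Of these 11 fell in palbociclib (26.2%, beside 2.44% of all tested genes, and 17 by DESeq2) and 22 in pimasertib (52.4%, beside 11.7%), and the median log2 fold changes were -0.60 and -0.79. None was called higher in either drug by edgeR, DESeq2 or limma-voom, and at an unadjusted p under 0.05 21 were lower in palbociclib, 27 in pimasertib and none higher, beside 18.0% and 36.5% of all tested genes in either direction. The largest palbociclib falls were those of ESPL1, the protease separase (-2.33, edgeR adjusted p = 9.74e-04), AURKB, the kinase that corrects wrong attachments (-2.16, edgeR adjusted p = 9.74e-04), and NEK2, a centrosomal kinase (-1.87, edgeR adjusted p = 0.00307). In pimasertib their log2 fold changes were -1.52, -1.29 and -1.08 (edgeR adjusted p = 7.54e-04, 0.00139 and 0.0113). The smallest palbociclib changes were those of CLIP1, a microtubule end-binding protein (0.03), BOD1 (0.03) and ITGB3BP, which encodes CENP-R (0.03). Their pimasertib values were -0.06, -0.12 and -0.19, and none of these genes was called in either drug. Log2 fold changes were below 0 in 34 of the 42 genes in palbociclib and in 39 in pimasertib. CENPT, which binds DNA with CENPW, had the highest value in each drug (0.47 and 0.45, edgeR adjusted p = 0.379 and 0.243).

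Compared per length in untreated cells, the set spanned 1.25 to 73.7 FPKM, the authors' deposited count scaled for gene length and library size, with a median of 12.6 FPKM over 39 genes. BUB3 was the highest (77.8 and 69.6 FPKM in the 2 DMSO libraries), then MAD2L1 (50.2 and 44.0) and CENPF (49.4 and 39.8), whose ranges overlapped each other. CENPP was the lowest (1.29 and 1.22 FPKM), below SGOL1 (3.88 and 3.24) and CENPQ (3.51 and 4.10), which overlapped. Within the NDC80 complex, SPC24 was at 34.2 and 25.2 FPKM, NUF2 at 19.2 and 18.4, NDC80 at 18.1 and 14.0 and SPC25 at 15.9 and 13.1, so subunits of 1 complex differed in level before treatment.

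Of the 39 genes, 23 overlap another listed gene, and in 8 a partner had the higher mean count. No source used here says whether counting used the strand, and without it the reads of opposite-strand partners cannot be told apart. ZWILCH overlaps RPL4, a ribosomal protein gene with a mean of 22620 counts against 540 for ZWILCH. RPL4 had log2 fold changes of 0.19 in palbociclib and 0.04 in pimasertib, neither of them called. OIP5, CENPA, CENPO, CENPP and MIS12 overlap OIP5-AS1, SLC35F6, ADCY3, IPPK with NOL8, and DERL2 in that order, none of which was called in either drug. SLC35F6 lies on the same strand as CENPA, over 16943 shared bases, so strand alone would not tell that pair apart. The part of these partners in the values was not tested.

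Markers of the labelled line were present. Of 7 mesenchymal markers, all but S100A4 had a lowest library value of 97.1 CPM or higher, and their sum was 5548 to 7805 CPM in palbociclib, 10682 to 14575 CPM in pimasertib and 3928 to 5925 CPM in DMSO. The markers did not move alike in pimasertib. SPARC was at 7200 and 10377 CPM in pimasertib, against 860 and 1710 CPM in DMSO, while VIM was at 672 and 512 CPM in pimasertib, against 999 and 988 CPM in DMSO. CD44 was at 416 and 461 CPM in pimasertib, against 1347 and 1834 CPM in DMSO. The 6 leukocyte markers all stayed under 1 CPM, and the summed epithelial and endothelial markers were at most 4.76 and 2.07 CPM in any library. CDH1 was at 0 in 5 of the 6 libraries and PTPRC likewise.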

How the data were processed

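RNA was sequenced from HT-1080 cells. Per the labels' protocols, cells were scraped, RNA was purified on columns and cDNA was primed with random hexamers. Builds hg19 and GRCh37 appear in the submitters' processing notes, as do the tools DESeq2, HTSeq 0.6.1, STAR 2.5 and CASAVA, without an order of steps. The authors deposited 1 table per drug with raw read counts per gene, used for every test here, and FPKM values, used only to compare levels between genes. Per the file headers, p-values, their adjusted form and log2 fold changes are the authors' own comparison with DMSO. The authors' deposited table calls 24 of the 39 genes lower in palbociclib and 29 in pimasertib, and none higher.

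The tables hold 23914 and 24931 genes, 22559 of them shared. DMSO counts of shared genes were identical, and genes listed in a single table, none of which had a DMSO count, were set to 0 in the other. Low counts were removed with filterByExpr by group (at least 10 counts, 15 in total), libraries were scaled by TMM, and counts were fitted in 1 model of 3 groups over 6 libraries with edgeR 4.0.16 in R 4.3.3 (glmQLFit, robust, then glmQLFTest, two-sided). The SE is the absolute log2 fold change divided by the square root of F. Replicates differed beyond sampling noise, with chi-square per degree of freedom of 40.0 to 53.2. Floors of 3 counts cover counting error only. DESeq2 1.42.0 and limma-voom (limma 3.58.1) were alternatives. The fit was tested on simulated data, where p-values of unchanged genes were calibrated but the share of false calls among all calls was above the nominal level, so calls close to the threshold carry more error than their adjusted p states.

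Genes described in every library were the 2 with the largest and the 1 with the smallest palbociclib change of each role, all not called in at least 1 drug, and all called between the drugs. The gene set, lists and tests were chosen with earlier results of these data known. CHR, CCAAT and E2F letters were searched on both strands of the first RefSeq promoter listed per gene. With all listed starts, 14 genes again held the CHR letters, beside 15.8% of protein-coding genes. Values of some overlapping genes are not reported here.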

Additional observations from a re-analysis of the deposited data

How the results depend on the processing

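Under the alternatives run, no called log2 fold change of the 39 genes changed sign. The median log2 fold change over DMSO moved by less than the spread between replicates (0.25 log2 units, pooled SD of the library medians). That of palbociclib over pimasertib was -0.31 to 0.01 when 1 library was left out, so its direction rests on pimasertib replicate 1. Leaving out 1 library gave 19 to 26 genes called lower in palbociclib, 10 to 32 in pimasertib, and 0 to 1 lower and 0 to 1 higher in palbociclib over pimasertib. With no filter on low counts, palbociclib over pimasertib gave 4 lower and 1 higher. With limma-voom it gave 0 lower, and from the 4 libraries of the comparison 1.

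Over all tested genes, palbociclib over DMSO gave 526 calls, 882 with DESeq2, 1097 with no filter, 325 from 4 libraries and 334 to 762 with 1 library left out (340 without pimasertib replicate 1). Pimasertib over DMSO gave 3376, and 1055 to 4082 with 1 library left out (1845 without DMSO replicate 1, 1576 without pimasertib replicate 1). Palbociclib over pimasertib gave 1393, 2256 with no filter and 456 to 1941 with 1 library left out (566 without pimasertib replicate 1). The causes were not tested.

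Replicates share numbers in the labels. Same-numbered libraries deviated from their group means together (r of 0.336 to 0.401 across genes), but with 2 numbers this is a hint from the data, not a design. A fit with a replicate block gave 36 genes called lower in each drug over DMSO, and 10 lower and 4 higher in palbociclib over pimasertib, out of 2953, 6551 and 4702 calls over all genes. The block called 12 genes between the drugs that the fit without it did not. A count of 3, at 0.168 to 0.220 CPM, lay below every library of all 39 genes.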
